A study of Mus musculus with 4 samples.

Results

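The subdermal prepuce fibroblasts of the fetal mouse penis are described here from 6299 cells, out of 47040 cell barcodes in 4 single-cell mRNA libraries. A cell was taken when at least 4 of the 7 genes *Dpt*, *Col14a1*, *Cd34*, *Creb5*, *Fbn1*, *Ebf1* and *Sema3c* were detected and *Cdh5*, the endothelial cadherin, was not. Cells also had 1000 to 10000 unique molecular identifiers (UMIs, each marking 1 captured mRNA molecule), with at most 25% of them mitochondrial and at most 25% from hemoglobin genes. These limits left 33704 kept cells, and those that passed the 7-gene rule are called the gated cells. The cells were chosen by these measured values, so the levels of the 7 genes, and differences in level between gated and other cells, are given as a description with no test. Tests compare genotypes, within gated cells or in how the response to genotype differs between cell classes.

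All embryos were male, at E16.5 (embryonic day 16.5), while the penile urethra is closing. All 4 carried *Rosa-LSL-DTA* (DTA f/+), a diphtheria toxin gene that stays silent until Cre recombinase removes a stop cassette. The 2 DTA- libraries are controls without Cre. The 2 DTA+ libraries carry the *Nr5a1-Cre* transgene, which switches the toxin on in cells with a history of *Nr5a1* expression. By the study's methods, ablated embryos also carried *Rosa-LSL-tdTomato*, a fluorescent reporter. The same driver acts in testes and adrenals, and the study describes small testes and no adrenals in ablated embryos. Loss of *Nr5a1*-lineage cells in the penis and loss of testis and adrenal hormones therefore cannot be told apart in these libraries. *Nr5a1* itself had 0 UMIs in the gated cells of every library.

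The prepuce is the fold of skin that covers the glans. Beneath its dermis lies loose connective tissue, whose fibroblasts secrete collagens, elastic fiber proteins and proteoglycans and resemble the fibroblasts of fascia and of the outer coat of vessels. *Cd34* and *Dpt* (dermatopontin, a small matrix protein) are widely used markers of such fibroblasts, *Col14a1* and *Fbn1* encode fibril-associated and microfibril proteins, *Ebf1* and *Creb5* encode transcription factors, and *Sema3c* encodes a secreted guidance cue.

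The gate took 1241 of 7600 kept cells in DTA- replicate 1, 1928 of 8433 in DTA- replicate 2, 1536 of 8304 in DTA+ replicate 1 and 1594 of 9367 in DTA+ replicate 2. Their summed UMIs came to 7740249, 10650956, 7893442 and 8461983 in the same order. The median gated cell held 6159 and 5203.5 UMIs in the 2 DTA- libraries, and 4725.5 and 5005.5 in the 2 DTA+ libraries. In other mesenchymal cells, defined below, the medians were lower, from 3088.5 to 4434. DTA- replicate 1 was sequenced deepest, and 10.7% of its barcodes were dropped for exceeding 10000 UMIs, against 4.30% to 4.73% in the other libraries. Between 31 and 48 barcodes were shared by any 2 libraries, at most 2 of them gated in both. No labels say whether a library came from 1 embryo or several, so the spread between the 2 libraries of a genotype may be partly technical.

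*Col14a1* was detected in 86.0% to 92.3% of the gated cells of a library, *Creb5* in 82.1% to 88.5%, *Fbn1* in 80.1% to 87.8% and *Ebf1* in 68.7% to 86.5%. *Dpt*, *Cd34* and *Sema3c* were sparser. *Dpt* was found in 41.3% and 44.9% of control and 55.5% and 61.7% of ablated gated cells, and *Cd34* in 53.0% and 50.2% of control and 37.5% and 38.3% of ablated gated cells. For comparison, macrophage-like cells (at least 3 of *C1qa*, *C1qb*, *C1qc*, *Fcer1g* and *Ptprc*; 65 to 82 cells a library, median depth 5457 to 6033 UMIs) held *Dpt* in 2.47% to 9.76% and *Col14a1* in 6.15% to 18.3%, which serves as the background of free RNA. Many gated cells sit at the threshold. Cells with exactly 4 of the 7 genes made up 51.7%, 47.3%, 51.4% and 49.7% of the gate in the 4 libraries, and those with all 7 made up 3.22%, 7.31%, 4.75% and 4.71%. Cells just outside, with 3 genes, numbered 953, 1246, 1134 and 1142. Summed *Dpt* was 78.7, 120, 158 and 203 CPM (summed UMIs scaled to a total of 1000000) in cells with 4 genes and 62.2, 70.0, 82.6 and 106 CPM in those with 3.

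Outside the 7 gate genes, the gene with the largest excess in gated cells was *Akap12*, which encodes a kinase-anchoring scaffold and is used by the study as a marker of preputial mesenchyme. It reached 431 and 582 CPM in control and 846 and 908 CPM in ablated gated cells. Other mesenchymal cells (at least 3 of *Col1a1*, *Col1a2*, *Col3a1*, *Pdgfra*, *Prrx1* and *Twist1*, at most 1 gate gene and no marker of another cell type; 13453 cells) had 20.9 to 40.8 CPM. On the scale of log2(CPM + 1), the mean difference was 4.51. *Akap12* was detected in 56.4% to 66.7% of gated cells, in 6.54% to 8.18% of other mesenchymal cells and in 1.54% to 8.64% of macrophage-like cells. With cells thinned to 1000 UMIs each, the gated share was 25.1% to 41.3% and the other mesenchymal share 1.92% to 3.6%.

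The genes that followed are a mixed set of secreted, receptor and synaptic-type genes. *Wnt2*, a Wnt ligand, stood at 78.5 to 111 CPM in gated cells and 3.52 to 7.51 CPM in other mesenchymal cells. *Agtr2*, the angiotensin type II receptor that predominates in fetal tissue, stood at 85.7 to 119 and 4.69 to 9.09 CPM. *Cthrc1*, a secreted collagen-associated protein, and *Dlk1*, a Notch-related protein of immature mesenchyme and preadipocytes, exceeded other mesenchyme by 3.32 and 2.92 on the log2 scale. *Dlk1* was also abundant, with a mean of 1215 CPM over the 4 gated samples. Others among the 15 most enriched were *Neto1*, *Vsnl1*, *Ccn3*, *Cd55*, *Iyd*, *Galnt16*, *Rarres2* and *Cbln2*, with differences of 2.94 to 3.79. In all 4 samples 31 of 6272 genes at 20 CPM or more were at least 4-fold higher in gated cells, the gate genes left out.

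**Figure D1:**
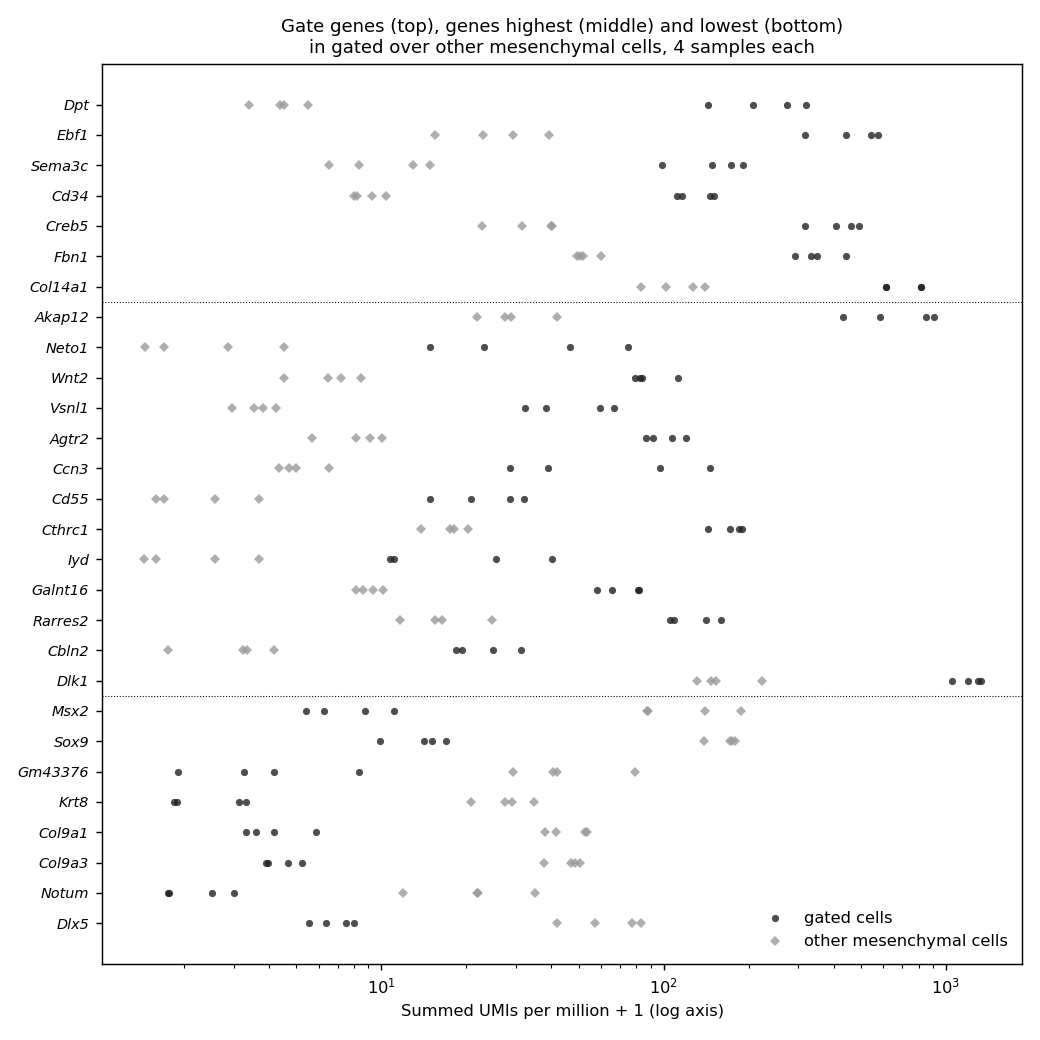
Summed UMIs in CPM (plus 1, log axis) in gated cells (dark circles) and other mesenchymal cells (gray diamonds), 1 point for each of the 4 samples, for the 7 gate genes, 13 of the 15 genes most enriched in gated cells and the 8 least. *Akap12* lies at 431 to 908 in gated and 20.9 to 40.8 in other cells, and *Msx2* at 4.39 to 10.0 and 86.2 to 186.

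At the other end, patterning and cartilage genes were low. *Msx2*, a homeobox gene of genital and limb mesenchyme, was at 4.39 to 10.0 CPM in gated cells and 86.2 to 186 CPM in other mesenchymal cells. *Sox9*, the master regulator of cartilage, was at 8.87 to 16 and 138 to 177 CPM. *Dlx5* and the cartilage collagens *Col2a1*, *Col9a1* and *Col9a3* were among the 15 lowest too. The named low genes were chosen after their values were seen.

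The label was checked against markers of fibroblasts and of cell types that the gate could hold. General fibroblast markers were abundant: all 12 were detected, with *Col3a1* highest and a summed level of 17085 to 27226 CPM. Of the 12, 10 were higher in gated than in other mesenchymal cells in all 4 samples and 2 were lower in all 4, among them *Prrx1*, with means of 391 and 598 CPM. *Dcn* (decorin) averaged 3525 CPM in gated and 538 CPM in other mesenchymal cells. Of 16 fascial and adventitial markers measured in both classes, 10 were higher in gated cells in all 4 samples, among them *Mfap5*, with means of 99.5 and 14.9 CPM. The markers that define fascial fibroblast progenitors most sharply, however, were rare. *Pi16* was detected in 0.314% to 1.19% of gated cells, against 0 to 2.47% of macrophage-like cells, so it was not above background. *Dpp4* was detected in 1.13% to 3.58%, against 0 to 2.44%. Of 7 papillary dermis markers, 6 were lower in gated cells in all 4 samples, among them *Lef1*, with means of 15.2 and 45.4 CPM, and *Trps1*, with 197 and 502 CPM. The markers thus show matrix-producing, *Akap12*-positive fibroblasts, while *Pi16* and *Dpp4* do not place them below the dermis. Since *Akap12* marks preputial mesenchyme in general and 47.3% to 51.7% of the gated cells of a library hold only 4 of the 7 genes, subdermal and other preputial mesenchymal cells cannot be told apart by this gate.

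Smooth muscle markers were higher in gated than in other mesenchymal cells in all 4 samples for 9 of 10 genes. They summed to 480 and 546 CPM in control and 276 and 208 CPM in ablated gated cells, with *Tagln* highest, and to 144, 197, 89.0 and 93.4 CPM in other mesenchyme of the same libraries. Against cells just outside the gate, with 3 gate genes, these markers did not all differ the same way. *Acta2* and *Tagln* averaged 147 and 170 CPM there over the 4 samples, above the 86.4 and 124 CPM of gated cells. *Des* (desmin) averaged 15.3 CPM there and 43.1 CPM in gated cells. Pericyte markers summed to 53.0 and 68.1 CPM in control and 80.3 and 85.1 CPM in ablated gated cells. Markers of the remaining cell types were low but not absent. Summed over their lists, endothelial markers came to 16.8 to 22.3 CPM, macrophage markers to 6.85 to 28.4 CPM, Schwann cell markers to 8.92 to 23.1 CPM, epithelial markers to 16.1 to 37.1 CPM and cartilage markers to 15.3 to 26.0 CPM. Mast cell markers varied most, from 7.33 CPM in DTA+ replicate 2 to 104 CPM in DTA- replicate 2. *Rgs5*, a pericyte gene, was at 1.42 and 6.38 CPM in controls and 14.8 and 15.1 CPM in ablated libraries, and the share of gated cells with a UMI of another cell type's defining marker was 6.2% and 5.96% in controls and 10.6% and 9.03% in ablated libraries. Hemoglobin RNA made up 0.429% and 0.321% of control and 0.241% and 0.0918% of ablated UMIs. Leaving out the cells with another type's marker gave 405 changed genes in place of the 438 described below, and of the 77 named genes that changed, 73 kept their call and 4, *Col8a1*, *Gpx3*, *Sgk1* and *Socs2*, did not.

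Gated cells differed among themselves along the number of gate genes. In cells with 6 or 7 gate genes, *Akap12* averaged 1236 CPM and *Dlk1* 2128 CPM over the 4 samples, against 444 and 787 CPM in cells with 4. *Agtr2* went from 43.1 to 233 CPM between the same classes. *Meox2*, a mesodermal homeobox gene, ran the other way, at 51.8 CPM in cells with 4 genes and 12.2 CPM in cells with 6 or 7. *Ly6a*, a surface protein of adult fascial fibroblasts and stem cells, was concentrated in the upper classes of the controls. It stood at 47.0 and 114 CPM there, against 3.11 and 10.9 CPM in control cells with 4 genes. These classes also differ in depth.

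*Grem1*, a BMP antagonist that the study uses as a marker of *Nr5a1*-lineage cells, was detected in 11.0% and 17.1% of control gated cells, against 3.08% and 0% of macrophage-like cells. Depth was not matched between cells with and without it. *Acta2*, the smooth muscle actin, was found in 38.2% and 20.1% of these, and in 7.06% and 10.2% of gated cells without *Grem1*. *Lum* (lumican) followed the same way, with 75.0% and 67.2% against 37.7% and 39.8%, and 4.62% and 9.72% in macrophage-like cells. Control cells with *Ly6a* rarely held *Acta2*, in 3.17% and 7.02%, and held *Akap12* in 79.4% and 90.8%.

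The first comparison asked whether ablation changed how many such cells the penis holds. The gated share of kept cells was 16.3% and 22.9% in controls and 18.5% and 17.0% in ablated libraries. The 2 ablated values lie between the 2 control values, so the genotypes overlap. Means were 19.6% ± 4.62 (SD, n = 2) and 17.8% ± 1.05 (SD, n = 2), and the exact two-sided permutation test gave p = 1, where the smallest p this design allows is 0.333. After thinning to 1000 UMIs, the share was 1.00% and 2.62% in controls and 2.00% and 1.30% in ablated libraries, which again overlap. *Cd34* and *Ebf1* were lower and *Dpt* higher in ablated gated cells, so the gate itself is not blind to genotype. With *Cd34* and *Ebf1* left out and 3 of the other 5 genes required, 22.6% ± 5.97 of kept cells passed in controls and 22.7% ± 1.71 in ablated libraries (SD, n = 2 each).

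The 7 gate genes were thus measured in cells chosen for them. From here on, CPM values per library and genotype means are scaled by the TMM method of edgeR, which corrects for library composition, except for *tdTomato*, *Ly6a*, classes by number of gate genes and neuron marker sums, which are unscaled. *Dpt* stood at 146 and 214 CPM in control and 267 and 306 CPM in ablated gated cells, and *Cd34* at 153 and 150 against 108 and 111. *Ebf1* stood at 586 and 563 against 311 and 425 CPM. *Col14a1*, *Creb5*, *Fbn1* and *Sema3c* differed less between genotype means, at 736 and 695, 374 and 463, 408 and 304, and 139 and 164 CPM.

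The second comparison asked which genes differed between ablated and control gated cells. UMIs were summed per library and tested with edgeR's quasi-likelihood test, and a gene with a Benjamini-Hochberg adjusted p under 0.05 is called changed. Of 13122 genes tested, 438 changed, or 3.34%, with 212 higher in DTA+ (1.62%) and 226 lower (1.72%). The median log2 change over all tested genes was -0.0011. In bulk sums of this kind, fewer cells with a transcript and less transcript per cell cannot be told apart. All 438 changed genes had non-overlapping genotypes, as did 46.5% of the genes tested. Among 6282 genes at 20 CPM or more, 62 lay at least 2-fold apart between the controls and 30 between the ablated libraries, against 138 to 177 between a control and an ablated library. Thinning cells to 1000 UMIs and applying the gate again left 76 and 221 control and 166 and 122 ablated gated cells. These far smaller sums do not separate depth from the number and choice of cells. There, 27 of the 77 named changed genes could be tested and 13 lost their call, with adjusted p of 0.0582 to 0.354: *Akap12*, *Ccn3*, *Col15a1*, *Epha7*, *Errfi1*, *Lox*, *Lum*, *Pappa*, *Robo2*, *Sfrp2*, *Slit3*, *Tgfbi* and *Twist1*. With 5 gate genes required, 11 of the 77 did: *Akap12*, *Gpx3*, *Hsd11b2*, *Klf9*, *Neto1*, *Pmepa1*, *Sfrp2*, *Sgk1*, *Socs2*, *Thy1* and *Vsnl1*.

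The most abundant genes among the 12 largest falls and 12 largest rises were *Igfbp2* and *Dkk2*. *Igfbp2*, which binds and restrains insulin-like growth factors (chr1:72824503-72852474, GRCm38), was at 1580 and 1416 CPM in controls and 435 and 397 CPM in ablated cells, a 3.6-fold fall (log2 -1.85 ± 0.11 SE, adjusted p = 0.000189). *Dkk2*, a secreted modulator of Wnt signaling (chr3:132085292-132180304), was at 51.5 and 44.5 CPM against 205 and 241 CPM, a 4.64-fold rise (log2 2.22 ± 0.15 SE, adjusted p = 0.000328). Neither gene overlapped between the genotypes. The other large falls were *Fkbp5*, *Mt1*, *Srd5a2*, *Col6a6*, *Adra2a*, *Rarres1*, *Errfi1*, *Meox2*, *Socs2*, *Nav3* and *Cebpd*, with log2 changes of -3.21 to -1.74. *Adra2a*, an adrenergic receptor, went from 47.4 and 62.3 to 11.0 and 11.5 CPM. *Socs2*, a feedback inhibitor of cytokine signaling, lost its call in 5 of 16 alternatives, with adjusted p from 0.0597 by edgeR with DESeq2 size factors to 0.269 by DESeq2, and 0.0849 without DTA- replicate 2. Of the other large rises, 5 belong to genes better known from neurons and are described below.

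**Figure D2:**
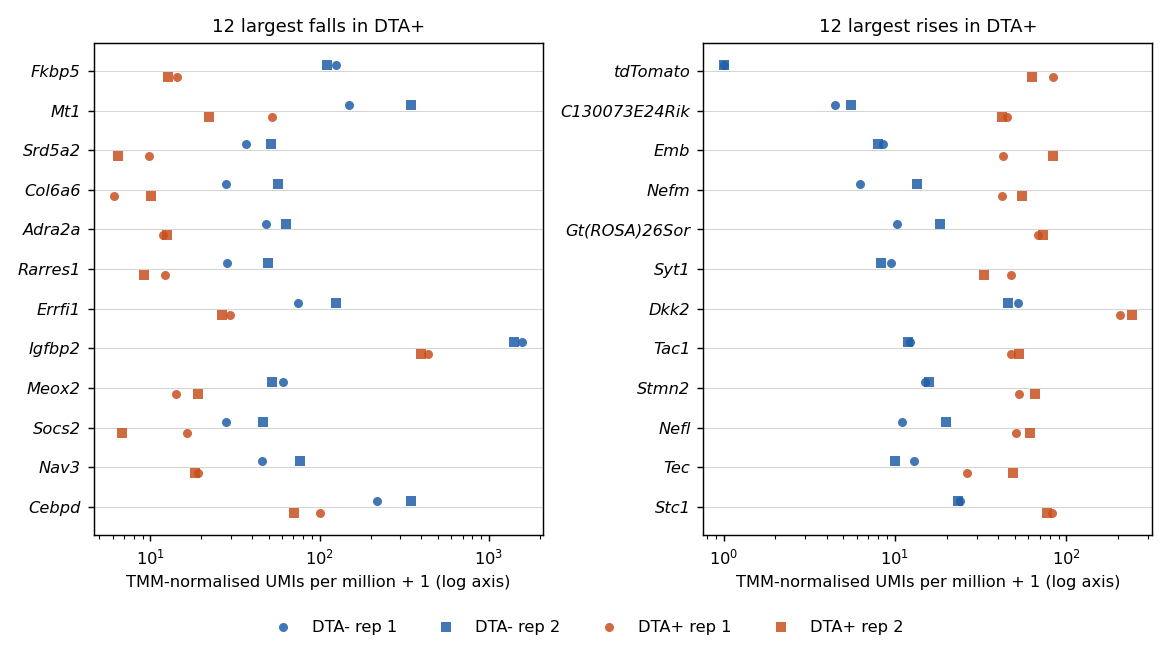
TMM-normalised CPM (plus 1, log axis) in gated cells of each library, for the 12 genes with the largest fall and the 12 with the largest rise among changed genes at 20 CPM or more. Blue points are the 2 DTA- and orange points the 2 DTA+ libraries. No gene shown overlaps between the genotypes, and *tdTomato* is at 0 in both controls.

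*tdTomato* had 0 UMIs in both controls and 665 and 542 UMIs in the ablated gated cells. Over the group this was at least 452-fold higher, against a floor of 3 UMIs over the summed control libraries. The sources used here do not say whether control embryos carried the unrecombined reporter allele. The study describes leaky *tdTomato* transcript at a low level in most cells, and calls cells lineage-positive only above a count cutoff. No such cutoff was applied here. *tdTomato* was in 29.2% and 27.4% of ablated gated cells and in 21.0% and 17.1% of macrophage-like cells, and its level in other mesenchymal cells, 84.7 and 68.0 CPM, was close to that in gated cells, 84.2 and 64.1 CPM before TMM scaling. *Gt(ROSA)26Sor*, the noncoding transcript of the Rosa locus that carries the transgenes, rose from 9.27 and 17.2 to 67.5 and 72.0 CPM.

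The next genes are known to be induced by glucocorticoids. The glucocorticoid receptor binds cortisol or corticosterone and switches on feedback genes such as *Fkbp5*, which encodes a chaperone that dampens the receptor. Of 16 genes of this list that were tested, 8 fell, 0 rose and 8 did not pass, and the list median was -0.85 against -0.0011 for all genes. *Fkbp5* (chr17:28399094-28517527, minus strand) stood at 124 and 110 CPM in controls and 13.4 and 11.7 CPM in ablated gated cells, a 9.27-fold fall and the smallest adjusted p of any endogenous gene (0.000102). It was detected in 49.0% and 40.9% of control and 6.51% and 5.96% of ablated gated cells. In macrophage-like cells the same shares were 20% and 20.8%, then 3.70% and 8.54%, so the ablated gated share in DTA+ replicate 2 was below the macrophage-like share. These shares do not separate free RNA from *Fkbp5* made by the macrophage-like cells themselves.

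The other genes of the list that fell were *Mt1*, *Mt2*, *Errfi1*, *Cebpd*, *Zbtb16*, *Klf9* and *Sgk1*. *Klf9*, a zinc-finger repressor, went from 83.3 and 140 to 47.1 and 35.2 CPM, and *Zbtb16*, another zinc-finger factor, from 20.8 and 26.3 to 7.72 and 8.89 CPM. *Cebpd*, a bZIP factor, went from 218 and 345 to 99.1 and 69.4 CPM. *Errfi1*, a feedback inhibitor of EGF receptors, fell by 1.88 on the log2 scale, a call lost after thinning (adjusted p = 0.0863). The *Sgk1* call was lost in 5 of 16 alternatives, with adjusted p of 0.0648 without DTA- replicate 2 and up to 0.102 with 3 gate genes required. The widely used glucocorticoid targets *Tsc22d3* and *Per1* did not pass the test, with log2 values of -0.49 and -0.27. *Dusp1* stood at 491 and 460 CPM on average in the 2 genotypes. *Nr3c1*, the receptor gene itself, was at 102 CPM ± 16.4 and 118 CPM ± 18.8 (SD, n = 2 each), which overlap.

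*Mt1* and *Mt2* encode metallothioneins, small proteins that bind zinc and copper, and lie side by side on chromosome 8. *Mt1* was at 148 and 344 CPM in controls and 51.0 and 21.3 CPM in ablated cells (log2 -2.77 ± 0.45 SE, adjusted p = 0.0130), and *Mt2* at 16.9 and 48.2 against 2.61 and 1.6 CPM (log2 -3.97 ± 0.53 SE, adjusted p = 0.00567). DTA- replicate 2 was well above DTA- replicate 1 in both genes, and neither gene overlapped between the genotypes. Metallothionein promoters are a textbook case of metal response elements, which is why these 2 are shown. They are RefSeq promoters (GRCm38.p6, plus strand, 250 bases before to 50 after the start) at chr8:94178839-94179138 for *Mt1* and chr8:94172368-94172667 for *Mt2*, 5′ to 3′. Capitals mark each match, on either strand, to TGCNCNC, a loose form of the element's core:
Mt1: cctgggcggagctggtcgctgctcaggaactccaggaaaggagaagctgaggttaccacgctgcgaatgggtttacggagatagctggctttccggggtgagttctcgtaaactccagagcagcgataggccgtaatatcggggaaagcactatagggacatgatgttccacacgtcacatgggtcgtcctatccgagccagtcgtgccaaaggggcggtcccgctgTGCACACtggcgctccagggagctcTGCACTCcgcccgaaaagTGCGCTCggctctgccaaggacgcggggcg
Mt2: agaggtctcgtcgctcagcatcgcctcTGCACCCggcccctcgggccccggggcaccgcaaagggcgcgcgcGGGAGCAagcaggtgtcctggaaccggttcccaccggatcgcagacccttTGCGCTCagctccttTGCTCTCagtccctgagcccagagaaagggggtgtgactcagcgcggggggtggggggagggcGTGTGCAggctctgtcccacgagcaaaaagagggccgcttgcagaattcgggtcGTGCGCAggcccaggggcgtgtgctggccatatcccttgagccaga

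*Mt1* holds 3 such matches and *Mt2* holds 6, of which 3 are on the reverse strand. This loose pattern is short and 51.0% of the 32851 promoters of the same length hold at least 1 match, but 7.10% hold 3 or more and 0.225% hold 6 or more. The *Mt1* window also holds 1 match to the glucocorticoid response element written as GNACA and TGTNC with any 3 bases between them (ggacatgatgttc), found in 0.475% of promoters, and the *Mt2* window holds none. These are matches of letters only. The other 4 tested genes of the metallothionein and zinc transporter list, *Slc30a1*, *Slc39a8*, *Slc39a10* and *Slc39a14*, did not pass the test.

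Genes of steroid action changed in both directions. *Srd5a2* encodes the reductase that converts testosterone to dihydrotestosterone, the androgen that drives male genital growth. It fell from 35.7 and 50.9 to 8.84 and 5.47 CPM (6.10-fold, adjusted p = 0.00197). *Hsd11b2*, which inactivates glucocorticoids, fell from 9.0 and 9.25 to 0.747 and 3.19 CPM, a call lost without either control (adjusted p = 0.0515 and 0.0549 by edgeR) and with 5 gate genes required (0.0819). *Esr1*, the estrogen receptor, rose from 1.85 CPM in each control to 23.7 and 27.0 CPM (log2 3.76 ± 0.23 SE, adjusted p = 0.000189). Together, 2 of 9 tested receptor and enzyme genes rose, 2 fell and 5 did not pass. Of 7 tested androgen-linked genes, 3 fell, among them *Pmepa1* and *Srd5a2*, and *Inhba* rose. The *Pmepa1* call was lost without DTA+ replicate 1 (adjusted p = 0.147) and with 5 gate genes required (0.0737).

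*Ly6a* was kept out of the gate because it was already known to fall, so its values are a description, although the counts of changed genes include it. Of the other 15 fascial and adventitial markers tested, 2 fell and 0 rose, with a median of -0.75. *Ly6a* had 128 and 535 UMIs in control and 2 and 3 UMIs in ablated gated cells, a ratio of summed levels of 118 (95% exact counting interval 50.3 to 364). *Ly6c1*, a close relative whose reads could be confused with those of other family members, had 38 and 150 against 2 and 2 UMIs, a ratio of 41.8 (16.1 to 155). The intervals cover counting error only, and the 2 controls differed, with 16.5 and 50.2 CPM of *Ly6a* before TMM scaling. *Gpx3*, a secreted glutathione peroxidase, fell from 8.06 to 3.40 CPM on average, a call lost in 7 of 16 alternatives, with adjusted p up to 0.151 where 5 gate genes were required, and 0.0824 and 0.0671 without DTA- replicate 2 or DTA+ replicate 2. The more abundant members *Cd248*, *Mfap5* and *Gsn* did not pass, with means of 163 and 144, 100.3 and 99.2, and 123 and 107 CPM. *Dpp4* was at 3.11 CPM in controls and 7.06 CPM in ablated cells and did not pass either (adjusted p = 0.161).

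Of 12 general fibroblast genes tested, 3 rose, 0 fell and 9 did not pass, while 6 had an unadjusted p under 0.05. Over all genes, 2027 of the 13122 tested, or 15.4%, reached that unadjusted level. The 3 were *Lum*, a proteoglycan that spaces collagen fibrils, from 402 and 441 to 999 and 749 CPM, *Pdgfra*, the receptor for PDGF-A, from 133 and 157 to 227 and 233 CPM, and *Thy1* from 22.8 and 25.7 to 39.1 and 41.4 CPM. The *Lum* call was lost after thinning to 1000 UMIs (log2 0.64, adjusted p = 0.0904). *Akap12* rose with them, from 441 and 604 to 832 and 876 CPM (log2 0.71 ± 0.15 SE, adjusted p = 0.0409), a call lost with 5 gate genes required (log2 0.57, adjusted p = 0.109) and after thinning to 1000 UMIs (log2 0.42, adjusted p = 0.354). The *Pdgfra* call was lost without DTA+ replicate 1 or 2 (adjusted p = 0.0889 and 0.123), and the *Thy1* call without DTA- replicate 1, DTA+ replicate 1 or DTA+ replicate 2 (0.0562, 0.0691 and 0.163), and these 2 calls were lost in 3 of 17 and 6 of 16 alternatives.

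Of 10 tested genes of smooth muscle, most of them contractile, 5 fell, 0 rose and 5 did not pass, and the list median was -1.4. *Acta2* went from 138 and 127 to 51.9 and 34.5 CPM, *Tagln* from 156 and 208 to 75.6 and 66.1 CPM, *Actg2* from 22.8 and 22.6 to 6.10 and 2.51 CPM and *Des* (desmin) from 56.7 and 71.1 to 22.4 and 24.8 CPM. *Myocd*, the coactivator that switches on the smooth muscle program, went from 34.0 and 42.1 to 17.2 and 8.43 CPM (adjusted p = 0.0205). *Myh11*, the smooth muscle myosin heavy chain, stood at 56.0 CPM in controls and 52.0 CPM in ablated cells and did not pass. The share of gated cells with 2 or more markers of the list was 26.0% and 30.7% in controls and 16.4% and 11.9% in ablated libraries. *Acta2* itself was in 10.5% and 11.9% of control gated cells against 3.08% and 1.39% of macrophage-like cells, and in 5.6% and 3.89% of ablated gated cells against 2.47% and 3.66%. The decrease was present in both classes of the gate: *Acta2* averaged 149 and 69.5 CPM in cells with 4 gate genes and 97.2 and 24.1 CPM in cells with 6 or 7.

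The list of *Nr5a1* lineage markers held 7 tested genes, 1 of them the general prepuce marker *Akap12*, which rose. The other 6 had negative values, and *Myocd* and *Col6a6*, a beaded-filament collagen, fell. *Grem1* stood at 37.9 and 56.6 CPM in controls and 29.6 and 12.4 CPM in ablated cells, without overlap but short of the threshold (log2 -1.18 ± 0.35 SE, adjusted p = 0.126). *Scube2*, a secreted protein of hedgehog signaling, stood at 7.81 and 8.48 against 4.98 and 3.42 CPM (adjusted p = 0.113). *Timp1*, a metalloprotease inhibitor, stood at 19.1 and 18.1 against 12.6 and 11.5 CPM (adjusted p = 0.122). *Nrg1*, an EGF-family ligand, overlapped, at 7.41 and 7.50 against 4.61 and 9.0 CPM. Its receptor *Erbb3* had 1.4 and 1.22 CPM on average, the coreceptor *Erbb2* had 25.7 and 23.7 CPM and *Egfr* had 12.8 and 9.30 CPM, and none of 5 tested EGF-family genes passed, at an adjusted or unadjusted p under 0.05 by edgeR. *Ccn1*, a matricellular protein, stood at 195 and 360 against 175 and 92.0 CPM (adjusted p = 0.148).

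Of 18 collagens tested, *Col15a1* and *Col8a1* rose, *Col6a6* fell and 15 did not pass. Negative values were found for 14 of the 18, and 10 had an unadjusted p under 0.05. The *Col8a1* call was lost with 3 gate genes required, without cells holding other types' markers and with *Cd34* and *Ebf1* out of the gate (adjusted p = 0.120, 0.0541 and 0.0614 by edgeR). *Col15a1*, a collagen of basement membrane zones, went from 22.8 and 26.3 to 78.6 and 85.4 CPM (log2 1.74 ± 0.15 SE, adjusted p = 0.0009, and 0.0582 after thinning), and *Col6a6* from 27.1 and 55.5 to 5.10 and 9.12 CPM. The 18 collagens had a median of -0.33, and the fibrillar *Col1a1*, *Col1a2* and *Col3a1* had log2 values of -0.32, -0.13 and -0.62. Among 19 elastic fiber genes only *Lox* passed; it encodes the oxidase that crosslinks collagen and elastin and fell from 804 and 1050 to 546 and 584 CPM, a call lost with 3 gate genes (adjusted p = 0.0525) and after thinning (0.135). *Has2*, the main fetal hyaluronan synthase, fell from 51.0 and 66.6 to 25.6 and 21.2 CPM, the 1 changed gene of 7 in its list. None of 13 matrix proteases and inhibitors passed by edgeR, although 7 had an unadjusted p under 0.05 and the list median was -0.39, and *Lum* was the 1 changed gene of 11 small leucine-rich proteoglycans.

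In the IGF axis 3 of 14 genes rose and 3 fell. *Igfbp5* fell beside *Igfbp2*, from 888 and 1231 to 486 and 382 CPM, while *Igfbp3* rose from 384 and 488 to 671 and 876 CPM. *Stc1* and *Stc2*, glycoproteins that inhibit the protease *Pappa* and so limit IGF release, moved apart: *Stc1* rose from 23.0 and 22.4 to 81.7 and 76.6 CPM and *Stc2* fell from 18.1 and 23.5 to 11.1 and 8.89 CPM. The *Stc2* call was lost without DTA- replicate 2 or DTA+ replicate 2 (adjusted p = 0.0595 and 0.0786). *Pappa* rose from 31.4 and 38.8 to 54.0 and 81.0 CPM. Its call was lost in 7 of 17 alternatives, with adjusted p of 0.0948 without DTA- replicate 1 and 0.219 without DTA+ replicate 2, and the *Igfbp3* call was lost without the same libraries (0.0545 and 0.0602). The ligands *Igf1* and *Igf2* did not pass, with means of 182 and 155, and 554 and 548 CPM.

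In the Wnt pathway 3 of 23 genes rose and 1 fell, with a median of 0.33. *Rspo2*, an R-spondin that amplifies Wnt signals, rose from 4.10 and 1.36 to 15.6 and 30.1 CPM. *Sfrp1*, a Wnt decoy, rose from 9.13 and 7.50 to 25.3 and 35.0 CPM, and its relative *Sfrp2* fell from 710 and 584 to 427 and 366 CPM, a call lost in 3 of 17 alternatives, with adjusted p of 0.0975 without DTA+ replicate 2, 0.0684 with 5 gate genes required and 0.122 after thinning. *Rspo3* was high in 1 ablated library alone, at 57.8 and 42.7 against 61.6 and 169 CPM, and did not pass. The transcriptional readouts *Axin2* and *Lef1* did not pass, with *Axin2* at 46.6 and 62.3 CPM on average. In the BMP, TGF-beta and activin pathway 3 of 24 rose and 1 fell. *Smoc1*, an extracellular BMP antagonist, fell from 30.3 and 39.8 to 4.86 and 3.88 CPM (log2 -3.01 ± 0.23 SE, adjusted p = 0.000522). *Inhba*, the activin subunit, rose from 31.8 and 26.7 to 80.8 and 76.2 CPM, *Bmp5* from 4.24 and 3.80 to 10.2 and 14.1 CPM and *Tgfbi* from 81.8 and 90.4 to 167 and 160 CPM. The BMP readouts *Id1*, *Id2* and *Id3* did not pass.

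Of 19 tested guidance genes, which steer axons and migrating cells, 6 rose, 1 fell and 12 did not pass, and the median was 0.39. *Dcc*, the netrin receptor, rose from 11.9 and 11.1 to 36.4 and 33.2 CPM and *Unc5c*, the repulsive netrin receptor, from 25.2 and 26.2 to 61.9 and 69.1 CPM. *Nrp2*, a semaphorin coreceptor, rose from 52.3 and 50.2 to 126 and 121 CPM, with *Sema3a*, *Epha7* and *Robo2*. *Slit3*, a ligand of Robo receptors, fell from 111 and 139 to 73.3 and 64.7 CPM. The *Robo2* and *Slit3* calls were lost without DTA+ replicate 2 (adjusted p = 0.0552 and 0.0841), and each in 3 of 17 alternatives.

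The 5 genes better known from neurons were grouped after their values were seen, and no list of such genes was tested. *Nefm* and *Nefl*, neurofilament subunits, rose from 5.29 and 12.5 to 41.1 and 54.0 CPM and from 10.1 and 18.9 to 49.7 and 60.6 CPM. *Stmn2*, a microtubule regulator of growing axons, rose from 14.0 and 14.9 to 51.7 and 64.5 CPM, *Syt1*, a calcium sensor of synaptic vesicles, from 8.47 and 7.31 to 46.6 and 32.1 CPM, and *Tac1*, the substance P precursor, from 11.3 and 10.9 to 46.3 and 51.7 CPM. *Tac1* was higher in other mesenchymal cells, with a mean of 199 CPM over the 4 samples against 30.6 CPM in gated cells, whereas the other 4 had higher means in gated cells. Of 9 neuron markers looked up for comparison, *Th* had 0 UMIs in all 4 libraries, and the 9 summed to 5.56 and 5.16 CPM in controls and 9.12 and 13.4 CPM in ablated cells. The most abundant of them, *Elavl4* and *Snap25*, had 15, 34, 43 and 32 UMIs and 3, 2, 9 and 61 UMIs. Of 4 tested Schwann cell markers, none passed by edgeR and 1 had an unadjusted p under 0.05.

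The other large rises were *C130073E24Rik*, a long noncoding RNA, from 3.44 and 4.58 to 44.1 and 41.1 CPM, *Emb*, a cell adhesion glycoprotein, from 7.55 and 7.01 to 42.0 and 83.1 CPM, and *Tec*, a tyrosine kinase, from 11.9 and 8.96 to 25.4 and 47.5 CPM. *Cxcl13*, a B-cell chemokine, was nearly undetected in controls, at 0.529 and 0.682 CPM, and reached 17.1 and 10.8 CPM, the 1 changed gene of 14 chemokines, cytokines and complement genes.

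Among 33 mesenchymal transcription factors tested, 4 rose and 1 fell. *Twist1* and *Nr2f2*, which are broadly expressed in mesenchyme, rose from 692 and 671 to 1102 and 1040 CPM and from 118 and 109 to 196 CPM in each ablated library. *Foxp2* rose from 15.2 and 21.1 to 43.1 and 45.9 CPM. *Foxl2*, a forkhead factor best known from the ovary, rose from 3.04 and 4.29 to 20 and 13.0 CPM. The study stains its protein to mark periurethral mesenchyme. *Meox2* fell from 59.4 and 51.4 to 13.2 and 18.1 CPM, with means of 81.5 and 22.1 CPM in cells with 4 gate genes and 15.7 and 8.70 CPM in cells with 6 or 7. The difference between these classes was not tested. Of the 13 Hox genes tested, which set position along the body, none passed by edgeR (3 at an unadjusted p under 0.05) and values ran from -0.36 to 0.56.

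Several pathways had no changed gene at an adjusted p under 0.05 by edgeR: 0 of 12 cell cycle, 0 of 13 hedgehog, 0 of 14 FGF, 0 of 12 hypoxia and glycolysis, 0 of 7 papillary dermis and 0 of 7 adipocyte lineage genes. At an unadjusted p under 0.05 the counts were 2, 3, 4, 2, 2 and 0 in the same order. Over all 18 lists without a changed gene, 37 of 136 tested members reached that unadjusted level, against 15.4% of all genes tested. *Mki67*, the proliferation marker, was at 60.9 and 69.0 CPM on average, *Ptch1*, a hedgehog target, at 62.5 and 70.3 CPM, and *Fgf10* at 29.0 and 44.9 CPM. Of 17 immediate early and heat shock genes, which rise when tissue is dissociated, only *Hspb1* fell. *Fos* was at 3949 and 4367 CPM on average, and *Atf3* differed mainly between the controls, at 29.9 and 228 CPM. Pericyte (5 tested), endothelial (5), macrophage (3), mast cell (5), epithelial (6), erythroid (5), cartilage (3) and tendon and keratocyte (4) markers had no changed gene either. All 5 erythroid markers had lower values in DTA+, with a median of -1.27 and an unadjusted p under 0.05 in each of the 5.

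**Figure D3:**
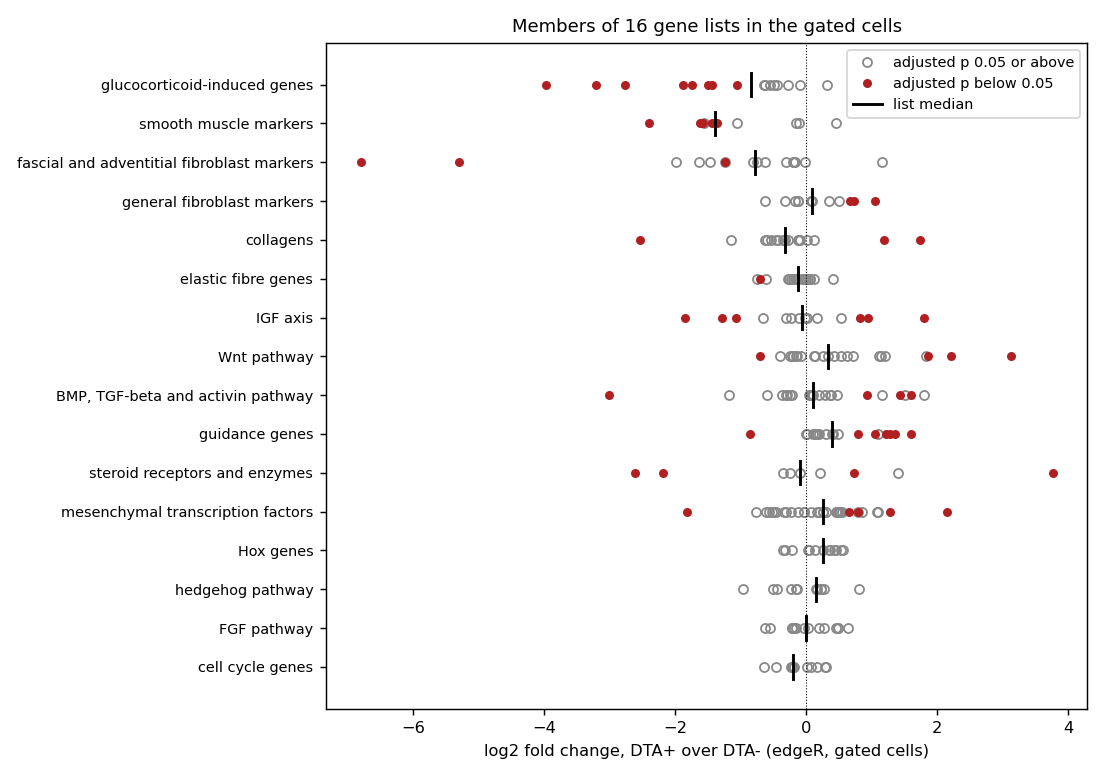
Log2 fold change of DTA+ over DTA- in gated cells for the tested members of 16 gene lists, 1 point per gene. Red points have an adjusted p below 0.05 and black bars are list medians. The glucocorticoid-induced and smooth muscle lists have medians of -0.85 and -1.4, and the guidance list 0.39.

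The third comparison asked where the gated cells responded differently from other mesenchymal cells of the same libraries. The test was an interaction of genotype and cell class with the library as a block, in which 384 of 14144 genes, or 2.71%, had an adjusted p under 0.05. Of these, 178 (1.26%) were more positive in gated cells and 206 (1.46%) more negative. The count fell to 111 without DTA- replicate 2, with all 384 genes keeping their direction. In 1 alternative, every cell was thinned to 1000 UMIs and both classes were chosen again on the thinned counts. In DTA- replicates 1 and 2 and DTA+ replicates 1 and 2, the gated class then held 76, 221, 166 and 122 cells. The other class held 4009, 4415, 4455 and 4995. Cells of the original gate can enter the other class this way, so the setting does not test depth alone. There, 1 of 11639 genes tested passed and none of the 12 interactions named below did. The interaction values of *Ccn3* and *Adra2a* changed sign, to -0.079 and 0.20. The 2 classes differ in median depth, as given above. Of the 438 genes that changed in gated cells, 414 could be tested for interaction and 113 passed.

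The genes with the most positive difference rose more in gated cells than elsewhere. *Ccn3*, a matricellular protein enriched in the gate, went from 38.7 and 28.8 to 94.3 and 139 CPM, against 3.42 and 5.66, then 3.91 and 3.62 CPM in other mesenchyme. *Col15a1* had a log2 change of 1.74 in gated and 0.04 in other cells (interaction adjusted p = 0.0255). *Emb* was low in control gated cells, at 7.51 and 7.05 CPM, and already at 66.0 and 51.4 CPM in other control mesenchyme, and it reached 42.0 and 82.7 CPM and 83.7 and 118 CPM. *Dkk2* likewise went from 51.2 and 44.8 to 205 and 240 CPM in gated cells, and from 131 and 114 to 152 and 237 CPM in other cells (interaction log2 1.56 ± 0.14 SE, adjusted p = 0.00322). *C130073E24Rik* and *Nefm* were the remaining genes of this set, with interactions of 2.44 and 2.10. *Ccn3* and *Col15a1* lost the call without DTA- replicate 2, with adjusted p of 0.0723 and 0.0875.

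The genes with the most negative difference fell in gated cells and had small positive or near-zero values elsewhere, apart from *Adra2a*. *Apod*, a lipid-binding protein, went from 158 and 192 to 63.6 and 54.1 CPM in gated cells and was at 73.4 and 70.3, then 88.4 and 92.2 CPM in other mesenchyme (interaction log2 -1.9 ± 0.14 SE, adjusted p = 0.00301). *Cebpd* fell by 1.74 in gated cells and had 0.04 elsewhere. *Crispld1* fell by 1.67 and had 0.17. *Rarres1*, a retinoid-responsive gene, and *Hspb1* had interactions of -1.85 and -1.79. *Rarres1* was not called without DTA- replicate 2 (log2 -1.57). *Hspb1* was not called without DTA- replicate 2 or DTA+ replicate 2 (log2 -1.18 and -1.51). In all, the *Hspb1* interaction lost its call in 7 of 14 alternatives. *Adra2a* fell by 2.29 in gated cells, where it was highest, and had -0.61 in other cells.

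Some genes described above were compared between the classes in the same fit. *Fkbp5* stood at 51.1 and 54.1 CPM in other control mesenchyme and 11.4 and 12.4 CPM in the ablated, so the classes ended at a like level from unequal starts (interaction -1.08 ± 0.16 SE, adjusted p = 0.0152). *Igfbp2* changed by -1.85 in gated and -1.13 in other cells (adjusted p = 0.00578) and *Srd5a2* by -2.61 and -1.35 (adjusted p = 0.0158). For *Mt1* the values were -2.77 and -2.35, and the difference did not pass (adjusted p = 0.456). *Esr1* rose in both, by 3.76 and 1.6 (adjusted p = 0.00921). For *Akap12*, *Lum* and *Myocd* no difference between the classes passed, with adjusted p of 0.420, 0.329 and 0.824. In the same interaction test *Grem1*, *Lox* and *Has2* did pass, with -0.80, -0.86 and -0.93 (adjusted p = 0.0304, 0.0109 and 0.0396).

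**Figure D4:**
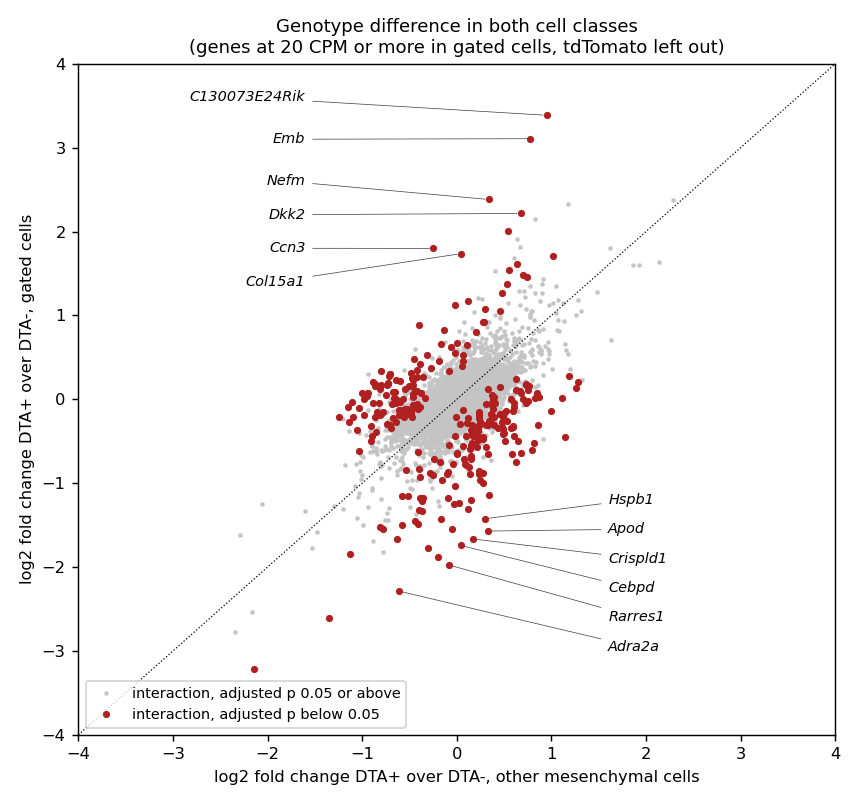
Log2 fold change of DTA+ over DTA- in other mesenchymal cells (horizontal) and in gated cells (vertical), 1 point per gene at 20 CPM or more in gated cells, with red points where the interaction has an adjusted p below 0.05. Points on the dotted line changed equally, *Col15a1* lies at 0.04 and 1.74, and *Apod* at 0.33 and -1.57.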

How the data were processed

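The authors sequenced 10x Genomics 3' single-cell libraries and aligned them to mm10 with reporter sequences added, using Cell Ranger (4.0.0 per the submitters' processing notes). They deposited raw UMI counts for 32287 features in each cell, which are not normalized. Cells were gated as described, UMIs were summed per library and cell class, and edgeR 4.0.16 in R 4.3.3 (TMM, filterByExpr, quasi-likelihood F test) compared genotypes. The interaction fit had library as a block. Alternatives used DESeq2 1.42.0, the likelihood ratio test of edgeR, other gates, cell limits, equal cell numbers and thinning to 1000 UMIs. In fits after thinning, both cell classes were chosen again on the thinned counts. Named genes were the gate genes, genes the study names, up to 4 changed genes per list, the 12 largest rises and falls and the 6 largest interactions per direction at 20 CPM or more, and the 15 most enriched genes. Other list members were added after their values were seen. The gate, the members and the gene lists were chosen with earlier results of these data known. No doublet caller was run, and 1 alternative left out cells with other types' markers. The tests were tested on simulated data. Python 3.11.15 (scipy 1.17.1) did the rest. Coordinates are GRCm38 (GENCODE vM21). A few genes that the rule names are not reported here.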

Additional observations from a re-analysis of the deposited data

Results flagged for a closer look

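The response to ablation differed between gated cells and other mesenchymal cells in 384 genes by the interaction test. Among the genes chosen for the size of this difference, the interaction was 2.44 for *C130073E24Rik*, 2.27 for *Emb*, 2.10 for *Nefm*, 2.05 for *Ccn3*, 1.73 for *Col15a1* and 1.56 for *Dkk2* on the log2 scale. It was -1.9 for *Apod*, -1.85 for *Rarres1*, -1.84 for *Crispld1*, -1.79 for *Hspb1*, -1.78 for *Cebpd* and -1.68 for *Adra2a*. Both classes come from the same libraries and differ in median depth. The reporter *tdTomato*, which is outside the endogenous genes compared, had 665 UMIs in the gated cells of DTA+ replicate 1 and 542 in those of DTA+ replicate 2, with 0 in both controls.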

How the results depend on the processing

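Counts moved more than directions. The 438 changed genes became 854 by the likelihood ratio test and 1182 with no filter on low counts. After thinning to 1000 UMIs and choosing the cells again, 53 of 2472 tested genes passed. There 98 of 100 testable genes kept their direction, as did 306 of 369 interaction genes. Leaving out 1 library at a time gave 532 to 629, with the lone sample assumed to vary like the others. The 384 interaction genes became 944, 1237 and 1 under the same 3 settings, 597 with 3 gate genes required and 289 to 528 under the other gates and cell limits. Leaving out a library gave 111 (without DTA- replicate 2) to 558 (without DTA+ replicate 1). Of the 77 named genes that changed, none reversed and 51 passed under each alternative in which they were tested. Of the 12 named interactions, 10 never reversed and 0 passed under each alternative, since thinning ended every call. A replicate block gave 808 changed genes and 428 interaction genes. Same-numbered samples did not deviate together (correlation -0.302 across 6282 genes), so the numbers are not taken as pairs, and a crossed pairing, added after seeing the data, gave 1290 and 1072. The other gates, cell limits and tools gave 313 to 491 changed genes. The gate without *Cd34* and *Ebf1*, also added later, gave 487.

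Values of opposite sign were found for 3 of 8 genes that the study names and that did not pass, and for 2 thinned interactions. Of these 8 study genes, 3 passed by the likelihood ratio test, 3 with no filter on low counts and 3 with a replicate block. With a crossed pairing 4 passed, and by DESeq2 0 did. Of 29 other genes described as not passing, 15 passed under at least 1 alternative and 14 had the opposite sign under at least 1. *Erbb2* ran from -0.28 to 0.020 with a library left out and was 0.037 without *Cd34* and *Ebf1* in the gate. *Erbb3* ran from -1.26 to 0.44, and was 0.40 with 3 gate genes and 0.29 without *Cd34* and *Ebf1*. *Nrg1* ran from -0.69 to 0.26 and was 0.25 with 5 gate genes. After thinning, the interaction was 0.20 for *Adra2a* and -0.079 for *Ccn3*. The cause was not tested. The difference in gated share ran from -5.11 to 1.43 percentage points with a library left out. Depth limits genes under a few CPM, and with 2 libraries a genotype small changes cannot be resolved.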
